A study of Mus musculus with 6 samples.

Results

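The epidermal differentiation complex is a dense cluster of genes for the outer layers of skin and other stratified epithelia, and in the mouse it lies on chromosome 3. The members described here were chosen by position: every protein-coding gene of the GENCODE M21 annotation (build GRCm38) whose start lies between 90450000 and 93600000 on chromosome 3. This gave 79 of 21938 protein-coding genes. They comprise 14 S100 genes, 17 precursors of the cornified envelope (Lor, Ivl and the Sprr family), 21 late cornified envelope (Lce) genes, 7 S100 fused-type genes, 9 other small genes of the complex and 11 neighbours. The interval was also read as 6300 adjoining tiles of 500 bp, so that open chromatin between the genes was counted.

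Chromatin accessibility was measured by single-cell ATAC-seq, in which a transposase cuts DNA where it is open and each cell's fragments carry one barcode. The libraries came from sorted YFP-positive cells of the dorsal olfactory epithelium of Krt5-CreER; Rosa26-LSL-YFP mice, in which Cre driven by Krt5 and switched on by tamoxifen marks Krt5-expressing cells and all their descendants with YFP. Both groups carried these alleles. The uninjured group has 3 libraries and the injured group 3, collected 24 h after intraperitoneal methimazole, which destroys the epithelium above the basal layer. In either group the mice were aged 8 weeks (replicate 1), 6 weeks (replicate 2) or between 6 and 7 weeks (replicate 3), and the labels do not say how many animals went into a library or how long before collection the tracing was started.

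Genes of the complex encode proteins that keratinocytes make as they leave the basal layer. Involucrin, loricrin and the small proline-rich (Sprr) and Lce proteins are cross-linked by transglutaminases into the cornified envelope, a protein shell under the plasma membrane, and filaggrin and its fused-type relatives bind keratin filaments. The S100 proteins are small calcium-binding proteins that flank this block on both sides, and several of them are made in many epithelia. The olfactory epithelium does not cornify. Horizontal basal cells (HBCs), its reserve stem cells, share Krt5, Krt14 and Trp63 with the basal cells of skin. AP-1, the dimer of Fos and Jun proteins, is a known regulator of several genes of the complex in keratinocytes. Accessibility is not expression, and no RNA was measured in these libraries.

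The 6 libraries held between 420 and 1338 barcodes with at least 2000 fragments, called cells here, with 14825320 to 44875242 cut sites in them. By markers, HBC-like clusters made up 63.8% to 93.9% of the clustered cells of a library, and the rest resembled sustentacular cells, olfactory neurons and neutrophils, so the labelled cell type holds for most but not all cells. The shares of HBC-like cells were 86.2%, 77.1% and 77.4% in the uninjured and 93.9%, 82.2% and 63.8% in the injured libraries. Injured library 2 held 1 barcode with 1746401 fragments, 14.7% of the fragments in its cells, of which 0.679% lay on chromosome 3 against 5.54% in its other cells. Uninjured library 3 and injured library 3 shared 34 barcodes with 82002 identical fragments, 5.98% of the smaller set. Other pairs shared 0 to 4 barcodes with 0 to 17298 identical fragments, and in the 1 barcode that injured libraries 1 and 2 shared, the large one of injured library 2, these were 91.7% of the smaller set. Counts with and without these barcodes stand beside the results they touch.

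Most of the complex was closed in these cells. The level of a promoter is its number of cut sites within 1 kb of the 5′-most annotated start, per 1000000 cut sites of the library's cells after scaling with trimmed-mean (TMM) factors (CPM). All windows have the same width, so levels can be compared between genes. The mean level over the 6 libraries was under 1 CPM in 56 of the 79 members (70.9%), against 32.4% of all protein-coding promoters, and the median was 0.34 CPM against 8.42. All 21 Lce genes lay under 1 CPM, as did 13 of 17 envelope precursors and 6 of 7 fused-type genes. Only 3 of 14 S100 genes did, and their median was 15.7 CPM. The complex thus held 14 promoters of 10 CPM or more: 8 of S100 genes, those of Sprr1a and Crnn, and 4 of neighbours at its centromeric edge (Npr1, Ilf2, Snapin and Chtop).

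**Figure D1:**
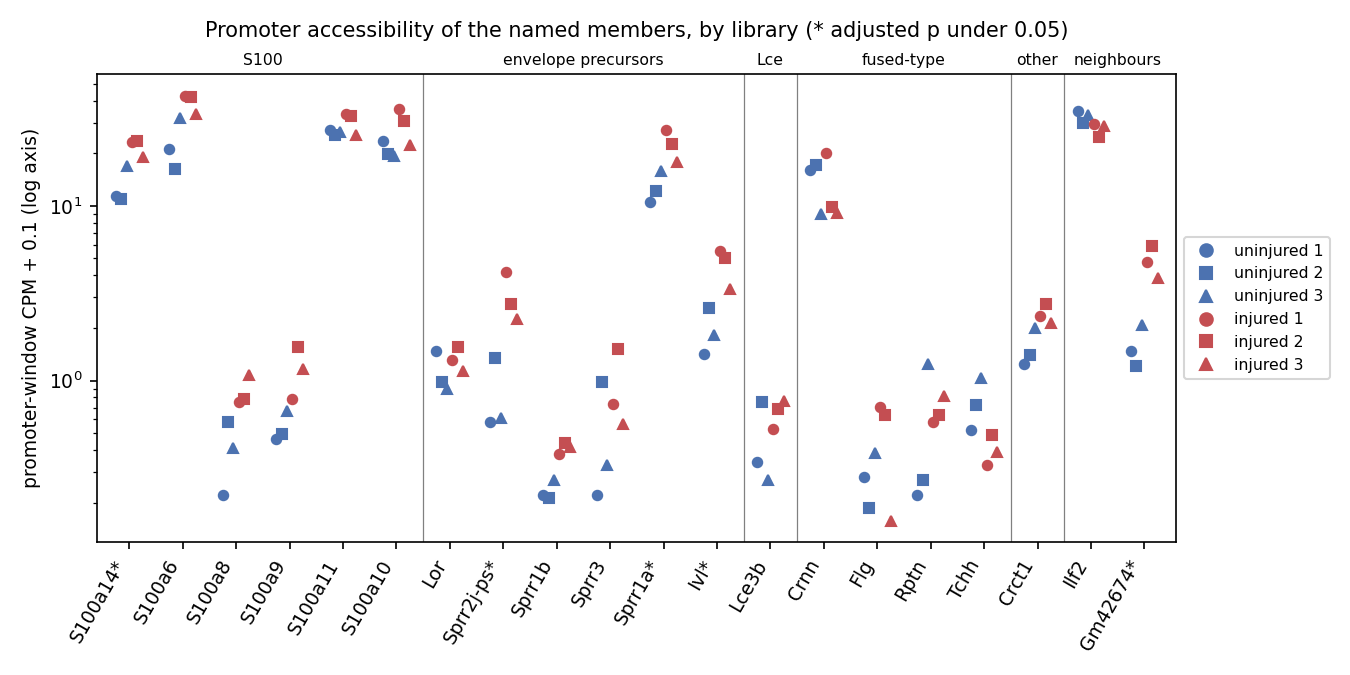
Promoter-window CPM plus 0.1 (log axis) of the named members in each of the 6 libraries, grouped by family; each point is 1 library, and an asterisk marks an adjusted p under 0.05. The S100 genes S100a14, S100a6, S100a11 and S100a10 and the envelope gene Sprr1a lie above 10 CPM in every library, while Lor, Flg, Sprr1b and Lce3b stay near or below 1 CPM in both groups.

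In the main comparison a small number of promoters differed after injury, and all of these were more open. Of the 46 members with enough cut sites for the test, 5 were higher and 0 lower (edgeR quasi-likelihood test, Benjamini-Hochberg adjustment over 17163 promoters). The 5 were S100a14, Gm42674, Sprr2j-ps, Sprr1a and Ivl. Over all promoters tested, 2.21% were called higher and 1.71% lower. Counting promoters whose groups did not overlap, 15 of the 46 (32.6%) were higher in all injured libraries and 6 (13%) lower, against 13% and 14.3% of all promoters tested. The other 33 members had too few cut sites, and a member that passed that filter only through the group in which it is high had to differ. The count of 5 changed when single libraries were left out, which also leaves fewer libraries to compare. It was 0 without uninjured library 1, injured library 1 or injured library 2, and 1 without uninjured library 2. Without injured library 3 it was 9, with 2 lower. In the fits that left out 1 library the log2 change ran from 0.61 to 0.98 for S100a14 and from 1.45 to 1.93 for Gm42674. With all libraries these were 0.74 and 1.65. Scaling also moved the split: with total cut sites in place of TMM factors 7 were higher and 5 lower. The median of all promoters was then −0.28. TMM factors from 10 kb bins, which shift the median of all promoters by −0.54, left 2 higher, Gm42674 and Sprr2j-ps, and 9 lower. Sprr1a, S100a14 and Ivl then stood at log2 0.25, 0.19 and 0.72 and were not called (edgeR quasi-likelihood adjusted p = 0.229, 0.385 and 0.0696). With replicate number as a block 7 were higher and 3 lower, and Sprr1a was not called. S100a1 and S100a13, whose windows overlap almost wholly, are 2 of the lower promoters in each of these settings. They are also 2 of the 6 lower without overlap of the groups. Without the barcodes of more than 150000 fragments, and without those shared between libraries, the same 5 were called, and in HBC-like cells alone these and S100a4 and S100a10.

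Among the envelope precursors, 3 of 10 tested promoters rose, to be read against 2.21% of all promoters. Sprr1a, a small proline-rich protein cross-linked into the envelope and also made by injured epithelia and nerves, stood at 10.4, 12.1 and 15.8 CPM in uninjured libraries 1 to 3 and at 27.1, 22.5 and 17.8 CPM in injured libraries 1 to 3. Every injured library was above every uninjured one, but uninjured library 3 and injured library 3 lay close together. The log2 change of Sprr1a was 0.80 ± 0.17 (SE; edgeR quasi-likelihood adjusted p = 0.0318). Ivl encodes involucrin, an early scaffold of the envelope, and stood at 1.32, 2.49 and 1.73 CPM before and 5.44, 4.92 and 3.25 CPM after injury. Its groups were separate and its log2 change was 1.27 ± 0.31 (SE; edgeR quasi-likelihood adjusted p = 0.0405). Sprr2j-ps, annotated as protein-coding although its symbol marks a pseudogene of the Sprr2 family, had 0.48, 1.25 and 0.51 CPM before and 4.08, 2.63 and 2.16 CPM after injury. It changed by 1.94 ± 0.43 on the log2 scale (SE; edgeR quasi-likelihood adjusted p = 0.0266).

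These are the 300 bases of the RefSeq promoter table (GRCm38.p6, from 250 bases before to 50 after the start) for the pair of named envelope genes with called promoters in that table, read 5′ to 3′ on the minus strand. Capitals mark matches to the AP-1 motif TGANTCA, which equals its own reverse complement in form and so was searched once for both strands.
Sprr1a, chr3:92485832-92486131: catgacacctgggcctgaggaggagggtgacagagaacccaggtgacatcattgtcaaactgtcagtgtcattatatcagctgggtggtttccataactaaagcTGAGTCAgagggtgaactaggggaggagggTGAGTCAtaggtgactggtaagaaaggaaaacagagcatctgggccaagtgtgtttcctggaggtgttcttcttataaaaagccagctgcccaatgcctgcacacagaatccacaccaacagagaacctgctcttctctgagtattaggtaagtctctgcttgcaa
Ivl, chr3:92573686-92573985: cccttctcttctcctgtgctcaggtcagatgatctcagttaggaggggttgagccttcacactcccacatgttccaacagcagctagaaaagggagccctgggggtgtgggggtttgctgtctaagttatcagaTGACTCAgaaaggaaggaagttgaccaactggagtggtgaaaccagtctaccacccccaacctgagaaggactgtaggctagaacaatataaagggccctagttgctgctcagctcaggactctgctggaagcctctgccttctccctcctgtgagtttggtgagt
Sprr1a has 2 matches and Ivl 1. Of the 32851 promoters in that table, 7.81% hold a match. Of the 61 members matched by symbol, 19 (31.1%) hold one, among them Lor, Flg, Rptn, Sprr1b and 7 Sprr2 genes whose windows were nearly closed in both groups. A match is a description of the letters and not a site of binding.

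The other envelope precursors were not called and had low levels, under 2 CPM in every library. Lor, loricrin, the most abundant protein of the mature envelope, had 1.38, 0.88 and 0.80 CPM before and 1.22, 1.46 and 1.04 CPM after injury, and its groups overlapped (log2 0.30; edgeR quasi-likelihood adjusted p = 0.717). Sprr3, of the same family and typical of oral and oesophageal epithelium, had 0.12, 0.88 and 0.23 CPM before and 0.63, 1.41 and 0.46 CPM after (log2 0.90; edgeR quasi-likelihood adjusted p = 0.477). Sprr2h had the largest log2 change among them, from 0.00, 0.17 and 0.11 CPM to 0.48, 0.54 and 0.58 CPM, with separate groups (log2 2.24; edgeR quasi-likelihood adjusted p = 0.105; 0.0456 with total cut sites as scale; named after its values were seen). With 0, 6 and 4 cut sites before injury, it could be tested only through the injured libraries, so it had to differ. Sprr1b had too few cut sites for the test, with 0.12, 0.11 and 0.17 CPM before and 0.28, 0.34 and 0.32 CPM after. Sprr2a1 and Sprr2a2 had no cut site in any library, but 97.5% of the 50-base words in their overlapping windows occur elsewhere in the genome, and 83.7% of those of Sprr2a3. Reads from these copies could not be placed, so they say nothing about accessibility. Among the remaining named members, repeated words made up at most 19.3% of a window (Sprr3).

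The Lce genes and most fused-type genes were closed before and after injury. The highest Lce member, Lce3b, had 0.24, 0.65 and 0.17 CPM before and 0.43, 0.58 and 0.66 CPM after injury. Of 21 Lce genes 5 could be tested and 0 were called, with a log2 change above 0 in all 5. Summed over the family the level was 3.00, 5.27 and 3.07 CPM in uninjured and 7.85, 7.55 and 5.87 CPM in injured libraries, a separation spread over 21 windows of very few cut sites each. Flg, the precursor of filaggrin, had 0.18, 0.09 and 0.28 CPM before and 0.61, 0.54 and 0.06 CPM after (log2 1.09; edgeR quasi-likelihood adjusted p = 0.476). Rptn (repetin) and Tchh (trichohyalin, of the hair follicle's inner root sheath) had log2 changes of 0.20 and −1.19 (edgeR quasi-likelihood adjusted p = 0.901 and 0.251). Crnn, cornulin of squamous epithelia, was the one open fused-type promoter, at 16, 17 and 8.84 CPM before and 20.1, 9.69 and 9.06 CPM after injury. Its groups overlapped, with a log2 change of −0.08 whose sign depended on the setting. With TMM factors from 10 kb bins Crnn (−0.65) and Tchh (−1.72) were called lower (edgeR quasi-likelihood adjusted p = 0.00218 and 0.0197). The median of all promoters was −0.54 in that setting, and Crnn lay near it.

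Most S100 genes (11 of 14) stood above 1 CPM in the mean, and 1 of 14 tested promoters rose, to be read against 2.21% of all promoters. S100a14, an S100 protein of epithelia, stood at 11.4, 10.8 and 16.7 CPM before and 23, 23.6 and 18.9 CPM after injury, a log2 change of 0.74 ± 0.16 (SE; edgeR quasi-likelihood adjusted p = 0.0295). S100a6 (calcyclin), the most open promoter of all 79, stood at 21.2, 16.1 and 31.9 CPM before and 42.8, 41.8 and 33.6 CPM after. Uninjured library 3 came close to injured library 3 in both genes. The log2 change of S100a6 was 0.76 ± 0.24 (SE; edgeR quasi-likelihood adjusted p = 0.139), and whether it passed depended on 1 library. Without uninjured library 3 it was 1.09 with an adjusted p of 0.000895 in the same edgeR test, while leaving out any other single library gave adjusted p-values of 0.157 to 0.336, and in cluster 2 cells (described with the cell clusters) it was −0.071. S100a4, an S100 protein of motile cells, also had separate groups, at 10.1, 10.6 and 10.0 CPM before and 25.0, 16.1 and 12.3 CPM after (log2 0.80; edgeR quasi-likelihood adjusted p = 0.0718; 0.00450 with DESeq2). The called window of Gm42674, a predicted gene, overlaps that of S100a4 at its edge, and its log2 change was 1.65 (edgeR quasi-likelihood adjusted p = 0.0128). With windows of 500 bp either side of the start, which do not overlap, the log2 change was 2.69 for Gm42674 and 1.61 for S100a4 (edgeR quasi-likelihood adjusted p = 0.00552 and 0.0498).

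S100a10, the light chain of the annexin A2 complex, had 23.4, 19.7 and 19.1 CPM before and 36.0, 30.4 and 22.3 CPM after injury, with 1 injured library below the highest uninjured one. Its log2 change was 0.52 ± 0.16 (SE; edgeR quasi-likelihood adjusted p = 0.0890). S100a11, another S100 protein that keratinocytes cross-link into the envelope, had 27.1, 25.5 and 26.2 CPM before and 33.6, 32.5 and 25.5 CPM after (log2 0.22; edgeR quasi-likelihood adjusted p = 0.237). S100a10 passed with DESeq2 (adjusted p = 0.0165), over the gene body (0.0337), in HBC-like cells (0.0108) and without injured library 3 (0.000751). Both genes lie at the telomeric end and were open throughout. Both log2 changes turned negative with TMM factors from 10 kb bins (−0.055 and −0.35), where the median of all promoters was −0.54. S100a1 and S100a13 start back to back and share a window, which stood at 22.5, 23.2 and 23.1 CPM before and 16.8, 16.4 and 20.9 CPM after for S100a1 (log2 −0.34; edgeR quasi-likelihood adjusted p = 0.0905). The order of mean levels over the 6 libraries ran from S100a6 through S100a11, S100a10, S100a1 with S100a13, S100a16 and S100a14 to S100a4.

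S100a8 and S100a9, whose proteins form calprotectin, abundant in neutrophils and made by damaged epithelia, were nearly closed. S100a8 had 0.12, 0.48 and 0.31 CPM before and 0.66, 0.68 and 0.98 CPM after injury. S100a9 had 0.36, 0.40 and 0.57 CPM before and 0.68, 1.46 and 1.07 CPM after. The groups of both were separate, with log2 changes of 1.25 and 1.22 that did not pass (edgeR quasi-likelihood adjusted p = 0.225 and 0.180). The summed promoter level of 12 neutrophil markers moved with them, from 3.6 to 4.6 CPM in uninjured libraries to 6.81 to 8.96 CPM in injured ones. Of those 12 markers, 7 could be tested and 0 were called, and their part in the values of S100a8 and S100a9 was not tested. The neutrophil-like cell cluster made up 0.89%, 4.08% and 2.39% of the clustered cells of uninjured and 0.08%, 6.93% and 5.15% of injured libraries. Of the 26 cut sites of S100a8 in injured library 1, 13 lay in cells of the HBC-like cluster 1 and 5 in those of the HBC-like cluster 2. Of the 14 in injured library 2, 4 lay in cluster 1, 0 in cluster 2 and 2 in the neutrophil-like cluster. Of the 34 in injured library 3 these clusters held 8, 13 and 4. In uninjured library 2, 6 of 17 lay in the neutrophil-like cluster. Scaled to each cluster's own cut sites, with no TMM factors, S100a8 in neutrophil-like cells stood at 10.2 CPM in that library. In injured libraries 2 and 3 it stood there at 8.15 and 10.2 CPM. These neutrophil-like values rest on 2 to 6 cut sites a library. On the same scale cluster 1 of injured libraries 1 to 3 had 0.43, 0.31 and 0.98 CPM. Cluster 2 had 0.71, 0 and 0.97 CPM. S100a9 had 15, 10 and 4 cut sites in cluster 1 and 4, 2 and 21 in cluster 2 of injured libraries 1 to 3, and 0 in the neutrophil-like cells of injured libraries 2 and 3.

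The neighbours at the centromeric edge were open in both groups. Ilf2, a broadly expressed RNA-binding factor, had 35.0, 29.8 and 33.2 CPM before and 29.4, 24.8 and 28.4 CPM after injury (log2 −0.24; edgeR quasi-likelihood adjusted p = 0.152). It was called lower with total cut sites as scale (−0.52) and with TMM factors from 10 kb bins (−0.79; edgeR quasi-likelihood adjusted p = 0.00274 and 5.69e-05). In these settings the median of all promoters was itself −0.28 and −0.54. Of the 11 neighbours 5 were tested, with a median log2 change of −0.06, and the only called one was Gm42674. Among the 9 other small genes of the complex, 6 were tested and 0 called. Kprp, a proline-rich keratinocyte protein, came nearest, with 1.08, 1.33 and 0.77 CPM before and 2.66, 2.34 and 2.10 CPM after (log2 1.16; edgeR quasi-likelihood adjusted p = 0.0809; named after its values were seen). Crct1, the most open of these genes, had a log2 change of 0.64 (edgeR quasi-likelihood adjusted p = 0.290).

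The tiles read the interval between the promoters as well as at them. A tile counted as open where its level, averaged over all libraries whatever their group, reached 0.23 CPM, which is 5 times the level of the genome's median tile. By this rule 591 of the 6300 tiles were open and 480 passed the filter on low counts. A tile that reached the open level, or passed that filter, only through the group in which it is high had to differ. Of these 480, 72 (15%) were higher after injury and 3 lower (edgeR quasi-likelihood test, Benjamini-Hochberg adjustment over 406452 tiles of the genome). Over the genome 5.48% of tested tiles were called higher and 1.26% lower. The median log2 change was 0.38 in the interval and 0.06 over the genome. Tiles were called higher both close to starts and away from them. Of the 75 tested tiles with their centre within 1 kb of a protein-coding start 7 were higher (9.33%), and of the 405 farther away 65 (16%). Over the genome 485 of 47343 such tiles close to starts and 21782 of 359109 farther away (6.07%) were higher. The 72 tiles formed 48 separate stretches, and their log2 changes ran from 0.79 to 5.37 with a median of 2.47.

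**Figure D2:**
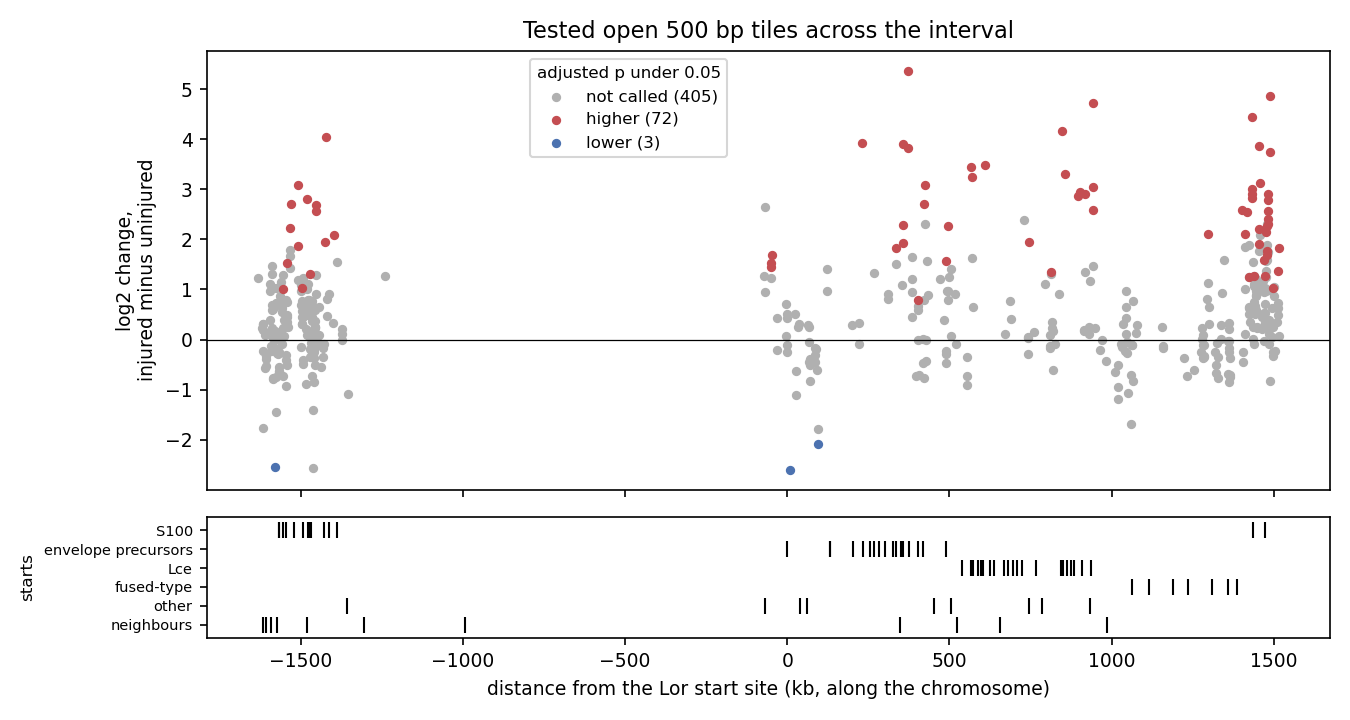
Log2 change (injured minus uninjured) of each of the 480 tested open tiles against its distance in kb from the start of Lor along the chromosome, with the starts of the members by family below. Most of the 72 higher tiles lie in both S100 blocks and the Sprr and Lce blocks, with 4 in the fused-type block, 3 of them nearest to Lce1m. Of those counted in the block from Lor to Sprr4, 3 lie nearest to Pglyrp3. The sparse stretch to the left of Lor is the gene-poor part between Pglyrp4 and Pglyrp3, with 9 of the 480 tiles.

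The blocks of the interval differed in how many tiles were called. The block of S100a11 and S100a10 had 29 of 107 tested tiles higher (27.1%) and a median log2 change of 1.04. The block from Ivl to Lce1m had 14 of 66 (21.2%), and the block from Lor to Sprr4 had 11 of 59 (18.6%) higher and 2 lower. Of these 11 tiles, 3 formed 1 run just past the block's boundary, nearest to the start of Pglyrp3. From S100a1 to S100a9 14 of 124 tiles (11.3%) were higher. The fused-type block from Crnn to Tchhl1, with 4 of 72 (5.56%), was near the share over the genome, and its median log2 change was −0.11. Of these 4 tiles, 3 formed 1 run just past the block's boundary, nearest to the start of Lce1m, and 1 lay nearest to Rptn. The neighbours from Npr1 to Chtop had 0 of 43 tiles higher and 1 lower. The gene-poor part from Pglyrp4 to Pglyrp3 had 0 of 9 tiles higher, with a median log2 change of 0.95. No test compares the blocks with one another.

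**Figure D3:**
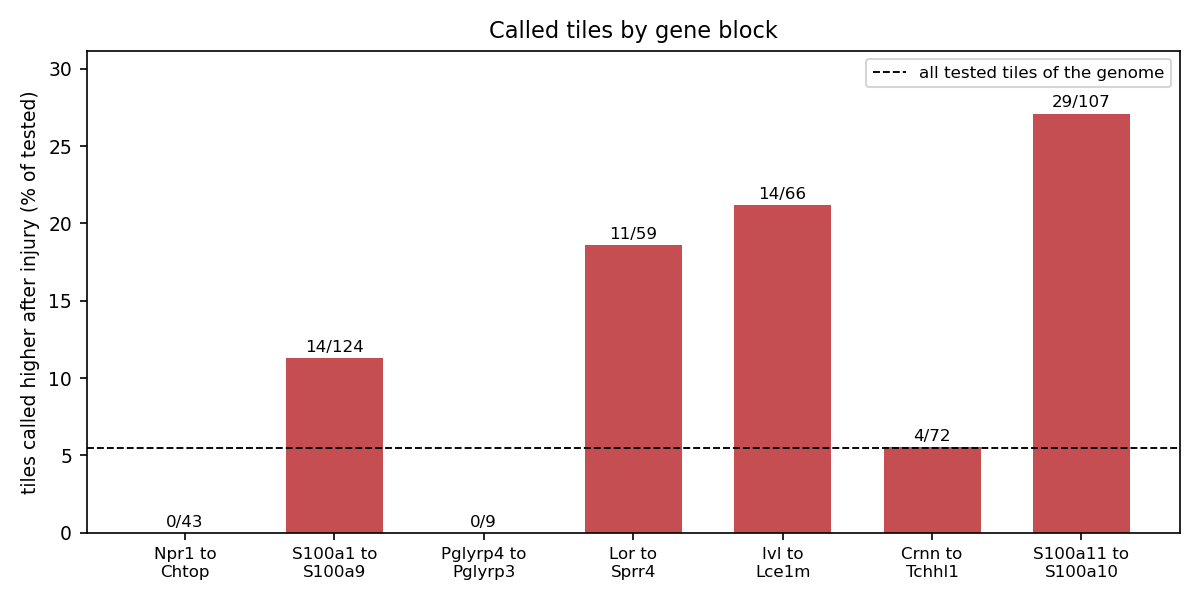
Percentage of tested open tiles called higher after injury in each block of the interval, with the number called over the number tested above each bar; the dashed line marks the share over all tested tiles of the genome, 5.48%. The bars run from 0 in the outer centromeric block and the gene-poor block from Pglyrp4 to Pglyrp3 to 27.1% in the block of S100a11 and S100a10.

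The called count changed when single libraries were left out, which also leaves fewer libraries to compare. Leaving out 1 library gave 16 to 101 tiles higher and 1 to 6 lower. It was 31 without uninjured library 1, 24 without uninjured library 2, 27 without injured library 1, 16 without injured library 2 and 101 without injured library 3, and 80 without uninjured library 3. Of the 72 tiles themselves, 16 to 71 were called in these 6 fits. Without the barcodes of more than 150000 fragments 64 tiles were higher, without barcodes shared between libraries 61, and in HBC-like cells alone 86. TMM factors computed on 10 kb bins, which shift the median tile of the genome by −0.36, left 43 higher and 12 lower.

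The named tiles are the 6 with the largest rise among called tiles of at least 2 CPM in the mean. The first lies 3470 bp downstream of the start of Sprr3, in intergenic DNA. It had 2, 5 and 4 cut sites in uninjured and 336, 135 and 78 in injured libraries, or 0.13, 0.15 and 0.12 CPM against 8.05, 6.42 and 2.18 CPM. It was all but closed before injury in all 3 libraries. Being below the open level there, it could be tested only because the injured libraries were high, so it had to differ. The fitted log2 change was 5.37 ± 0.56 (SE; edgeR quasi-likelihood adjusted p = 0.00152), a value that depends on the prior count because the uninjured counts are so low. A tile 17170 bp downstream of the start of S100a10 rose from 0.25, 0.24 and 0.38 CPM to 12.9, 10.3 and 2.96 CPM (log2 4.87; edgeR quasi-likelihood adjusted p = 0.00167). With 4, 8 and 13 cut sites in uninjured libraries, it passed the filter on low counts only through the injured ones, so it too had to differ. Another tile, 5233 bp downstream of the start of S100a7a, rose from 0.25, 0.32 and 0.38 CPM to 9.78, 4.61 and 1.87 CPM (log2 4.04; edgeR quasi-likelihood adjusted p = 0.00310). It had 4 cut sites in uninjured library 1, too few for the filter, so the uninjured libraries alone would not have passed it. In all 3 tiles injured library 1 was highest and injured library 3 lowest, and over the 72 higher tiles injured library 3 was the lowest injured library in 65.

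A tile 3176 bp downstream of the start of Lce1b, among the closed Lce genes, rose from 0.38, 0.56 and 0.23 CPM to 5.39, 3.95 and 1.81 CPM (log2 3.24; edgeR quasi-likelihood adjusted p = 0.00392). Its 8 cut sites in uninjured library 3 were too few for the filter on low counts, so the uninjured libraries alone would not have passed it. A tile 13330 bp upstream of S100a10 rose from 0.50, 0.38 and 0.38 CPM to 4.46, 3.52 and 2.96 CPM (log2 3.13; edgeR quasi-likelihood adjusted p = 0.00163). The tile 2738 bp upstream of S100a11 was the most open of the 6 before injury, at 2.21, 0.65 and 1.48 CPM, and it rose to 12.9, 11 and 7.17 CPM (log2 2.90; edgeR quasi-likelihood adjusted p = 0.00215). It belongs to a run of 4 called tiles. The promoters of S100a11 and S100a10 themselves did not pass in the same libraries.

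**Figure D4:**
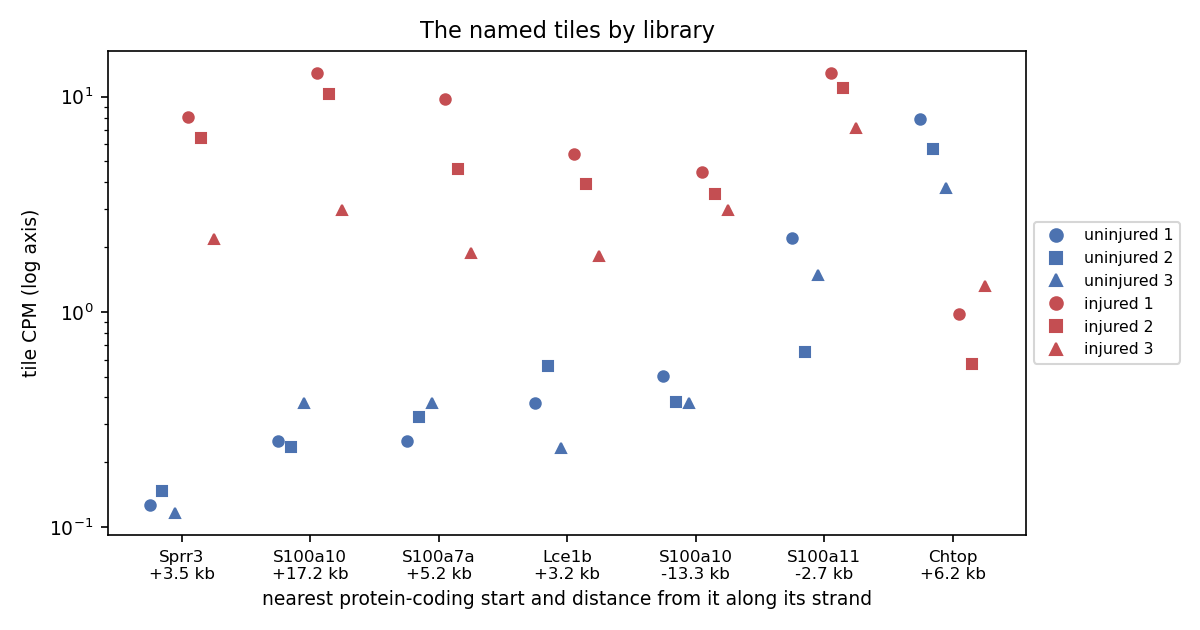
CPM (log axis) of the 7 named tiles in each library, labelled by the nearest protein-coding start and the distance from it along its strand. In the first 6 tiles the injured libraries lie above every uninjured library, and in the tile at Chtop below.

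From each of the 6 named tiles that rose, the 300 bases with the most cut sites are given here, read 5′ to 3′ on the plus strand of GRCm38. They are shown because these tiles had the largest rises among the called tiles of at least 2 CPM, and capitals mark matches to the AP-1 motif TGANTCA.
Near Sprr3, chr3:92455163-92455462: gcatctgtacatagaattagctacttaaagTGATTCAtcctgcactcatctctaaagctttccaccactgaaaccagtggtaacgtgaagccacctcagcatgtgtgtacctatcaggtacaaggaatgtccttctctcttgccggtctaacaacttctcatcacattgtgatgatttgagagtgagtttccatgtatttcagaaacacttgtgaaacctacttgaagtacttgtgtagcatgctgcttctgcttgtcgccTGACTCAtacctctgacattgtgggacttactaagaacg
Downstream of S100a10, chr3:93572134-93572433: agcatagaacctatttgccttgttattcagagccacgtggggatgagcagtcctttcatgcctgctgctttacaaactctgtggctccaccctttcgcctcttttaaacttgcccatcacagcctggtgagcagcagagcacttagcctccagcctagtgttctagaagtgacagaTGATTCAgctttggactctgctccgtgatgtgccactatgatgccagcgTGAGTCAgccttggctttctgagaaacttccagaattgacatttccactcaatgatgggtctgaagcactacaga
Near S100a7a, chr3:90659003-90659302: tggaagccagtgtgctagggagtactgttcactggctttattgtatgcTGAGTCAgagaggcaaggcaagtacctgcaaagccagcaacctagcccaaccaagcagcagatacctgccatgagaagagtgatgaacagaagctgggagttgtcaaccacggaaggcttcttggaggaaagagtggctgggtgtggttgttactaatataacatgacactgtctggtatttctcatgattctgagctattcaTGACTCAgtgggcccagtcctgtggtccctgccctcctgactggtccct
Near Lce1b, chr3:92653687-92653986: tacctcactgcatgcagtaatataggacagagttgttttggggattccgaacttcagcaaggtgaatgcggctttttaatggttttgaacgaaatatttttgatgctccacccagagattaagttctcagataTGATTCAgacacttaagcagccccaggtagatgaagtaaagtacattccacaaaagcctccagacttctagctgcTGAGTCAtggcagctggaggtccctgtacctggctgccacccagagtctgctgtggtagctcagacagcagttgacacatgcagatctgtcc
Upstream of S100a10, chr3:93541550-93541849: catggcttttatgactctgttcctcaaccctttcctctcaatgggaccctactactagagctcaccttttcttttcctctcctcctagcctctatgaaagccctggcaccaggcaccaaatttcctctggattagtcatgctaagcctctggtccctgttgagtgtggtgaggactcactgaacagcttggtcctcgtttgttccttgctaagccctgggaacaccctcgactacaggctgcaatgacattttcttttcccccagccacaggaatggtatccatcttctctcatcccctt
Upstream of S100a11, chr3:93517501-93517800: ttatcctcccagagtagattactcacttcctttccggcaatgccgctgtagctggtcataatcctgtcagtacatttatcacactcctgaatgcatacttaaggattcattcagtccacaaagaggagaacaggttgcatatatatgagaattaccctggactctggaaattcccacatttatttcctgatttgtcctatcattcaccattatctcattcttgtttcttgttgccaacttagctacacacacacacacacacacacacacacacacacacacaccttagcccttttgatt
The first 4 windows hold 2 matches each and the last 2 hold 0, although the full tile upstream of S100a11 holds 1.

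Across the interval, 48.6% of the 72 higher tiles held at least 1 AP-1 match, against 19.3% of the 405 tiles not called and 20.3% of the 406452 tested tiles of the genome. Read the other way, 35 of the 113 tiles with a match (31.0%) were called higher, with a median log2 change of 0.97, and 37 of the 367 without (10.1%), with a median of 0.29. Over the genome the same shares were 16.1% and 2.77%, and 59.7% of its higher tiles held a match, so the link between this motif and the higher tiles was a property of the whole genome. The TEAD motif GGAATG, searched on both strands as the other motifs were, was in 33.3% of the higher and 25.4% of the uncalled tiles of the interval. The motif CCGGTT of the Grhl factors, which act in epithelial differentiation, was in 1 of the 72 higher tiles (1.39%) and in 2.22% of those not called. None of the 3 motifs contains another, and these shares are descriptions with no test.

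Tiles close to the genes filled in the picture from the promoter windows. Of the 72 higher tiles, 7 had their centre within 1 kb of a start, namely those of S100a14, Gm42674, S100a6, Sprr2j-ps, Sprr1a, Ivl and Kprp. The tile centred 632 bp upstream of S100a6 stood at 3.40, 2.15 and 3.52 CPM before and 8.75, 8.18 and 5.36 CPM after injury (log2 1.30; edgeR quasi-likelihood adjusted p = 0.0130), while the whole S100a6 window did not pass. The tile at the start of Ivl rose from 0.94, 1.50 and 0.96 CPM to 4.17, 3.52 and 2.57 CPM (log2 1.57; edgeR quasi-likelihood adjusted p = 0.0161). Sprr1b, whose own window was nearly closed, had 3 adjoining called tiles upstream of it. The nearest of them, centred 1461 bp upstream, had 0.00, 0.29 and 0.12 CPM before and 3.00, 2.85 and 1.45 CPM after injury (log2 3.91; edgeR quasi-likelihood adjusted p = 0.00529). That tile reached the open level only through the injured libraries. The tile of the S100a8 and S100a9 region that was called, 11471 bp from the start of S100a9, reached 1.29, 0.90 and 1.14 CPM after injury. These tiles were named after their values were seen.

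The largest fall among tiles of at least 2 CPM was in an exon of Chtop, which encodes a chromatin and mRNA export factor, at the centromeric edge. It stood at 7.87, 5.72 and 3.75 CPM before and 0.98, 0.57 and 1.31 CPM after injury (log2 −2.55; edgeR quasi-likelihood adjusted p = 0.00309). The Chtop promoter itself stood at 24.5 to 28.6 CPM in all 6 libraries. The other tiles called lower lay 8108 bp upstream of Lor and in an exon of Gm35439, at 0.90 to 1.39 CPM and 0.99 to 2.65 CPM before injury.

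Over all its bases, the interval held 0.103%, 0.109% and 0.120% of the cut sites in uninjured and 0.153%, 0.135% and 0.123% in injured libraries. All injured libraries were higher, by 0.026 percentage points in the mean, but injured library 3 exceeded uninjured library 3 by little. With 3 against 3 libraries the exact two-sided permutation p was 0.1, the smallest possible. The block of S100a11 and S100a10 gave the largest part of this, from 0.0204%, 0.0187% and 0.0242% to 0.0414%, 0.0346% and 0.0285% (exact permutation p = 0.1). The fused-type block had means of 0.0151% before and 0.0152% after injury (exact permutation p = 1.0). Without barcodes of more than 150000 fragments the share of injured library 2 was 0.154% in place of 0.135%.

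The cells fell into 9 clusters, and the higher tiles were not spread evenly over them. The clusters were built from all open tiles, these included, so the following values are descriptions, given per 1000000 cut sites of a cluster's cells with no TMM scaling. Cluster 1, HBC-like, held 981, 248 and 144 cells of injured libraries 1 to 3 and 1, 0 and 3 cells of uninjured ones. Cluster 3, also HBC-like, held 294, 481 and 143 cells of uninjured and 5, 2 and 1 of injured libraries. Cluster 2, HBC-like as well, held cells of every library, 67, 122 and 172 before and 248, 82 and 307 after injury. Of the respiratory and glandular markers, Reg3g and Tff2 stood at 25.3 and 19.5 CPM over the gene body in cluster 2, against 1.84 and 4.17 CPM in cluster 1 and 4.35 and 3.94 CPM in cluster 3. Reg3g was as high in cluster 7, at 26.4 CPM. Foxj1 and Muc5b were also higher in cluster 2 than in clusters 1 and 3. Sox9 and Aqp5, at 39.0 and 39.5 CPM, were lower than in cluster 3 (48.5 and 51.9 CPM), and Scgb1a1 and Bpifb9b were nearly absent. Relative to the mean cluster, the median log2 level in cluster 2 was 0.39 for HBC markers and 0.30 for respiratory and glandular ones. The summed level of the 72 higher tiles was 453, 419 and 431 CPM in cluster 1 and 70.2, 72.2 and 59.7 CPM in cluster 3. The 72 tiles were chosen as higher in injured libraries, which hold nearly all of cluster 1, so a gap between these clusters was built into the choice. Over all open tiles of the interval the sums were 1420, 1423 and 1389 CPM in cluster 1 and 874, 846 and 854 CPM in cluster 3. Cluster 1 made up 74.3% of the clustered cells of injured library 1, 61.4% of injured library 2 and 20.03% of injured library 3, the same order as the levels of Sprr1a, Ivl and most named tiles. Its part in those differences between libraries was not tested.

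Cluster 2 lay between clusters 1 and 3 at the 72 tiles, which summed to 163, 183 and 125 CPM in its uninjured and 229, 253 and 218 CPM in its injured cells. These libraries also chose the tiles, so an injured level above the uninjured one is favoured here too. Over all open tiles of the interval the groups overlapped in cluster 2, with sums of 1376, 1380 and 1183 CPM in uninjured and 1264, 1244 and 1246 CPM in injured libraries. Of the smaller HBC-like clusters, the 72 tiles summed to 166 CPM in cluster 7 (uninjured library 3) and to 46.7 and 74.4 CPM in cluster 9 (uninjured libraries 1 and 2). The S100a6 window stood at 65.9, 62.6 and 50.4 CPM in uninjured cluster 2 cells, above the 41.4 to 44.6 CPM of cluster 1 and the 14.4 to 16.1 CPM of cluster 3. S100a14 had 23.8, 22.9 and 21.7 CPM in the same cells, near the 24.7 to 32.1 CPM of cluster 1. Ivl had 0.00, 2.70 and 1.45 CPM there and 5.49 to 6.13 CPM in cluster 1. In cluster 2 cells alone, 0 of 21 tested promoters of the complex were called (edgeR quasi-likelihood test, Benjamini-Hochberg adjustment). Of 161 tested tiles 3 were higher, in a comparison with far fewer cut sites. No share over the genome is given for it, so these counts show nothing particular to the complex. In cluster 2 cells the log2 changes of the 5 promoters called in all cells were 1.67 for Ivl, 0.89 for Gm42674, 0.82 for Sprr2j-ps, 0.36 for Sprr1a and 0.17 for S100a14.

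**Figure D5:**
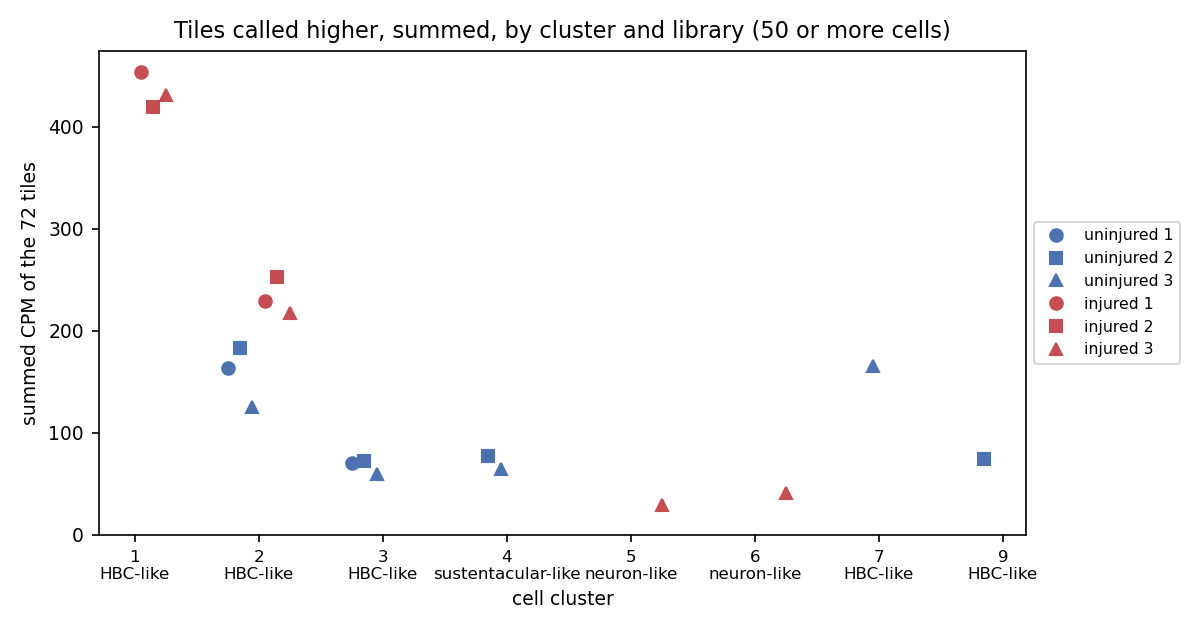
Summed CPM of the 72 tiles called higher, by cell cluster and library, for clusters and libraries with at least 50 cells; each point is 1 library. Cluster 1 lies at 419 to 453 CPM, cluster 2 between 125 and 253 CPM with the injured libraries above, and cluster 3 at 59.7 to 72.2 CPM; the tiles were chosen as higher in the injured libraries, which favours these directions.

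Genes of cornification that lie outside the complex were read in the same fit. Of 30 listed, 28 were tested, 3 rose and 0 fell, with a median log2 change of 0.68 and 23 above 0. Over all 17163 promoters tested, 2.21% rose and 1.71% fell, the median was 0.0028 and 8652 were above 0. A median of this size was not particular to the list. It was 0.64 for neutrophil markers (6 of 7 tested above 0) and 0.80 for macrophage and other leukocyte markers (10 of 10). The other marker lists ran from −1.06 (sustentacular) to 0.25 (olfactory sensory neuron). The cornification list was chosen with earlier results of these data known. The 3 cornification genes that rose were Sbsn (suprabasin), Krtdap, a secreted keratinocyte differentiation protein, and Tgm1, the transglutaminase that cross-links the envelope. Tgm1 stood at 10.8, 14 and 14 CPM before and 21.4, 23.4 and 16.6 CPM after injury (log2 0.65; edgeR quasi-likelihood adjusted p = 0.0264). Sbsn stood at 0.36, 0.94 and 0.74 CPM before and 3.95, 4.53 and 2.33 CPM after (log2 2.34; edgeR quasi-likelihood adjusted p = 0.00757). The pattern in these 3 genes was that of Sprr1a and Ivl, with separate groups and injured library 3 the lowest of the injured.

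Of 20 listed regulators of the complex 0 promoters rose and 2 fell, to be read against the same 2.21% and 1.71% of all promoters. Fosb fell by 0.51 and Junb by 0.38 on the log2 scale (edgeR quasi-likelihood adjusted p = 0.00760 and 0.0242). Both encode subunits of AP-1, and both promoters were wide open in all 6 libraries, Junb at 45.4 to 68.4 CPM. Among the stress keratins Krt6a, Krt6b, Krt16 and Krt17, which wounded skin induces, 1 of 4 promoters rose. Krt16 stood at 1.14, 1.25 and 2.39 CPM before and 33.5, 19.9 and 9.90 CPM after injury (log2 3.68; edgeR quasi-likelihood adjusted p = 0.0204).

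Cells with an open stress-keratin window were not consistently those with open envelope genes. Krt17 gave most of the cut sites in these windows before injury, at 59.2, 44.9 and 35.9 of a summed 61.6, 47.1 and 42.1 CPM. After injury it gave 57.2, 42.5 and 36.6 of 110.5, 80.1 and 54.9 CPM, and it did not pass. The split of cells thus rests largely on Krt17 before injury, and on Krt17 together with Krt16 and Krt6a after it. The windows of the envelope precursors and Lce genes together held 44.7, 40.7 and 40.5 CPM in cells with at least 1 cut site in the 4 keratin windows and 45.0, 29.7 and 20.7 in cells with none, for injured libraries 1 to 3. The ratios were 0.995, 1.37 and 1.96. In HBC-like cells alone they were 0.996, 1.28 and 1.03, and in uninjured libraries 1.22, 0.685 and 1.24. Cells with a keratin cut site were deeper, with medians of 30474, 50118 and 54544 cut sites against 15112, 19524 and 22101. Thinned to 2000 cut sites a cell, the ratios were 1.71, 0.817 and 1.48, from 5 to 36 cut sites in the cells with a keratin cut site.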

How the data were processed

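The authors deposited, for each library, a fragment file with a count of read pairs per deduplicated fragment and a peak matrix with its barcodes. The submitters' processing notes name Cell Ranger 2.0.0 and the build mm10. No source used here gives the aligner or the peak caller, and the matrices were not used. The genes, families, motifs and lists were chosen with earlier results of these data known.

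Both ends of each fragment were counted as cut sites, once per fragment whatever its read pairs, over barcodes with at least 2000 fragments. No filter for doublets was applied, and cells were summed per library because cells are not replicates. Promoter windows (1 kb either side of the 5′-most start, GENCODE M21) and 500 bp tiles with a mean of at least 5 times the median tile were counted over the whole genome. Groups were compared with edgeR 4.0.16 in R 4.3.3, after filterByExpr and with TMM factors, by the robust quasi-likelihood F-test, with Benjamini-Hochberg adjustment over all features tested and a threshold of 0.05. Only features of the interval are reported. p-values measure the spread between 3 libraries a group, which the labels call biological replicates. Single values per library were compared by an exact two-sided permutation test. Named are all called members, the member of highest mean CPM in each family, 14 listed genes, and up to 6 called tiles in each direction with the largest change and a mean CPM of at least 2.

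Cells with at least 20% of cut sites in open tiles were clustered (30 SVD components, 15 neighbours, Leiden resolution 0.5; Python 3.11.15, scikit-learn 1.9.0, igraph 0.11.9) and named by the marker list that stood highest in a cluster. Cluster 2 and HBC-like cells served as alternatives, as did DESeq2 1.42.0, other scalings, filters, windows, tile grids and leaving out each library. Tested on simulated data for the promoter comparison (17163 promoters), 154 of 200 changes of log2 1 and 190 of 200 of log2 2 were recovered, with 22 unchanged promoters called. For the tile comparison (100000 tiles) 6 of 200 and 77 of 200 were recovered, with 9 unchanged tiles called. The simulated tiles held a far smaller share of changes than the 5.48% higher and 1.26% lower called in the data. Fewer changes make the adjusted threshold stricter, so these tile shares do not give the power in the data. The promoter shares cover all tested promoters, most of them more open than most members.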

Additional observations from a re-analysis of the deposited data

How the results depend on the processing

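Of the 72 higher tiles 16 to 71 were called with 1 library left out. In cluster 2 cells alone only 24 of them could be tested, of which 21 were above 0 and 2 were called. Promoter calls were fewer and less stable, and low windows (Lor, Rptn) and those with small changes (Crnn, S100a11) have no reliable sign. Each of the 5 called promoters lost its call under 5 to 8 of 20 alternatives. With 1 library left out the log2 change ran from 0.64 to 0.98 for Sprr1a, 0.61 to 0.98 for S100a14, 1.09 to 1.54 for Ivl, 1.45 to 1.93 for Gm42674 and 1.64 to 2.56 for Sprr2j-ps. The depth allows no statement on single Lce or Flg windows. The cause of the changes listed here was not tested.

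Higher promoters numbered 0 to 9 and lower ones 0 to 2 with 1 library left out, and higher tiles 16 to 101 and lower tiles 1 to 6. With total cut sites as scale 5 promoters and 6 tiles were lower, where the medians of all promoters and tiles were −0.28 and −0.11. TMM factors from 10 kb bins gave 2 higher and 9 lower promoters, and 43 higher and 12 lower tiles. A window of 500 bp gave 8 higher promoters, and gene bodies 2 higher and 1 lower. Lower tiles numbered 5 in HBC-like cells, 7 with fragment midpoints and 5 without shared barcodes. Cluster 2 cells alone were an alternative chosen after seeing the data, as were those without the largest and the shared barcodes. They gave 0 higher promoters of 21 tested, and 3 higher and 0 lower tiles of 161 tested.

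Replicate number was not in the main fit. Deviations of same-numbered libraries correlated at 0.043, 0.169 and 0.2 over promoters. Each uninjured library correlated best with its same-numbered injured library. Of the injured libraries only library 1 correlated better with another, uninjured library 2 (0.087). Same-numbered libraries also had mice of the same age, and libraries 3 shared 34 barcodes. These values do not settle whether the libraries are paired. With replicate number as a block 7 promoters were higher and 3 lower and 75 tiles were higher and 4 lower. With the block Sprr1a was at an adjusted p of 0.0533 by edgeR and not called. S100a4 (0.0210), S100a10 (0.00666) and Kprp (0.0458) were then called higher, and Ilf2 (0.0412), S100a1 (0.0350) and S100a13 (0.0362) lower.

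Single promoters turned sign as follows, none with a call in that setting. With 10 kb bins Lor was −0.27, Rptn −0.32, S100a11 −0.35 and S100a10 −0.055. With total cut sites Rptn was −0.075 and S100a11 −0.074. In cluster 2 cells S100a6 was −0.071, S100a11 −0.032, S100a10 −0.040 and Crnn 0.49. In HBC-like cells Lor was −0.049. Over gene bodies Lor was −0.14 and Rptn −0.24, and with a 500 bp window Rptn was −0.15 and Crnn 0.013. With 1 library left out Crnn ran from −0.56 to 0.13 and Rptn from −0.23 to 1.91.

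Over 12 alternatives the interval's share of cut sites was higher after injury by 0.018 to 0.041 percentage points (0.018 to 0.033 with 1 library left out). The mean co-opening ratio was 1.44 ± 0.49 (SD, n = 3), 1.335 thinned and 1.1 in HBC-like cells.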

Other observations

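Clusters outside the HBC-like ones gave values that enter no comparison above. The sustentacular-like cluster 4 summed to 73.4, 76.9 and 64.9 CPM over the 72 higher tiles in uninjured libraries 1 to 3 (21, 118 and 52 cells) and to 203 and 200 CPM in injured libraries 1 and 3 (24 and 28 cells). The neuron-like cluster 5 summed to 18, 18.4 and 22.4 CPM in uninjured libraries, to 129 CPM in injured library 1 (40 cells) and to 29.7 CPM in injured library 3 (97 cells). Cluster 7, HBC-like, held 159 cells of uninjured library 3 and at most 5 of any other library, and summed to 166 CPM there, with S100a6 at 48.0 CPM and S100a14 at 26.1 CPM, both above the cluster 3 cells of the same library (16.1 and 18.1 CPM). The neutrophil-like cluster 8 summed to 18.8 CPM in uninjured library 2 and 24.5 and 30.7 CPM in injured libraries 2 and 3 (28 and 37 cells).

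Marker lists of other cells also differed between the groups. The summed promoter level of 12 leukocyte markers ran from 18.8 to 20.3 CPM in uninjured and from 27.7 to 45.0 CPM in injured libraries. Of 10 tested, 2 were called higher, Csf1r and Cd68 (edgeR quasi-likelihood test, Benjamini-Hochberg adjustment). Over all promoters tested 2.21% were called higher and 1.71% lower. Cd68 gave most of this sum, at 16.2, 16.01 and 16.7 CPM before and 37.0, 23.9 and 21.9 CPM after injury. Over its gene body Cd68 stood at 36.4 CPM in the HBC-like cluster 1 and at 11.3 CPM in the neutrophil-like cluster 8. No cluster was named by the leukocyte list, and which cells gave the higher sum was not tested. The summed level of 6 sustentacular markers ran from 32.5 to 45.3 CPM in uninjured and from 23.8 to 27.2 CPM in injured libraries. Of these 6, all tested, 2 were called lower, Ermn and Muc2. Of 8 HBC markers, all tested, 1 was called lower, Icam1, and 0 higher. Of the neuron, precursor, respiratory and microvillar markers 0 were called.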
